A study of Mus musculus with 6 samples.

Results

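The antiviral response of single macrophages was followed through 10 genes, Ifit1, Ifit2, Ifit3, Isg15, Rsad2, Cmpk2, Usp18, Mx1, Mx2 and Oasl1. They were chosen by name as the IFIT genes and core antiviral effectors, and all 10 were found among the 18428 genes of the count matrix. Bone marrow-derived macrophages were sorted by flow cytometry into plates, and unique molecular identifiers (UMIs), the tags that mark single captured transcripts, were counted per gene and cell with the MARS-seq protocol. The matrix held 1362 cells in 6 groups, each of which was 1 sample. Wild-type macrophages and macrophages that had lost the cohesin subunit RAD21 (Rad21-/-) were compared without stimulation and after 2 h or 8 h in lipopolysaccharide (LPS, a bacterial ligand of Toll-like receptor signalling) at 10 ng/ml.

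The mice of both genotypes were creERT2/creERT2 at the Rosa26 locus and were of mixed strain background. Their Rad21 alleles were wild-type or lox/lox, and all 6 groups received 200 nM 4-hydroxy-tamoxifen at 96 h, including the wild-type controls, with experiments at day 7 of culture. The Rad21-/- cells therefore lost RAD21 for the last days of differentiation only, in culture, through a Cre that is active in every cell type and not in macrophages alone. The number of bone marrow donors was not given in the sources used here. With 1 sample per group no comparison below carries a test, and the intervals given with values are 95% intervals that cover counting error only. Beside a count of 0, the limit given is the share that 3 cells would make, which bounds cells with a UMI and not cells that express the gene.

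The 10 genes are classical interferon-stimulated genes. Pattern recognition receptors such as TLR4 lead macrophages to make interferon beta, which acts back on the same and neighbouring cells through the receptor IFNAR and brings transcription factors to interferon-stimulated response elements. IRF factors bind closely related sequences. The IFIT proteins bind foreign RNA and block its translation, ISG15 is a ubiquitin-like modifier that USP18 removes from proteins, viperin (Rsad2) and CMPK2 act on nucleotides, the MX proteins are dynamin-like GTPases, and OASL1 is an OAS-like protein without the synthetase activity that restrains translation of Irf7.

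The genes lie at 6 loci. Ifit2, Ifit3 and Ifit1 are close to each other on chromosome 19, with 6.585 kb between Ifit2 and Ifit3 and 51.907 kb between Ifit3 and Ifit1. Rsad2 and Cmpk2 lie 12.665 kb apart on chromosome 12, and Mx1 and Mx2 lie 73.175 kb apart on chromosome 16, where RefSeq for GRCm38.p6 annotates both as transcribed pseudogenes. The RefSeq promoter table, which gives 250 bases before and 50 bases after a start, held a window for 7 of the 10 genes and none for Usp18, Mx1 and Mx2. These windows were searched on both strands for the core of the response element, TTTCNNTTTC, which reads GAAANNGAAA on the other strand. It was present in 4 of the 7, at 2 places in Ifit1, 2 in Ifit3, 3 overlapping places in Isg15 and 1 in Rsad2, and in 4.05% of the 11289 genes that both tables list. The match closest to a start began 66 bases before it. Below are the 200 bases before the start for these 4 genes and for Cmpk2, the neighbour of Rsad2 that held no match, read 5′ to 3′ on the gene's own strand in GRCm38.p6, with the matched letters in capitals.
Ifit1, chr19:34640689-34640888, plus strand: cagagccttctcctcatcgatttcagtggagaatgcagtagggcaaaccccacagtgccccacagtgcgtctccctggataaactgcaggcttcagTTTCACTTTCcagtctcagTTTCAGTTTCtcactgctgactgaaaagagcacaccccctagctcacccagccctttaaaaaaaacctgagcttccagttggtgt
Ifit3, chr19:34583329-34583528, plus strand: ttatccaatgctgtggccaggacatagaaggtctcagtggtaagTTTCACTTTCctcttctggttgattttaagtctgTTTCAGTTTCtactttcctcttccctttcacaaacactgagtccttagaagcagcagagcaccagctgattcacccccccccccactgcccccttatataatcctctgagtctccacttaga
Isg15, chr4:156200819-156201018, minus strand: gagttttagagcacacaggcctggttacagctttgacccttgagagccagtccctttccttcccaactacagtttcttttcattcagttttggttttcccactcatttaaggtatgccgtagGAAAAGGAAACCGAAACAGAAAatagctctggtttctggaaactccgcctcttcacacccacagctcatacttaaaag
Rsad2, chr12:26456453-26456652, minus strand: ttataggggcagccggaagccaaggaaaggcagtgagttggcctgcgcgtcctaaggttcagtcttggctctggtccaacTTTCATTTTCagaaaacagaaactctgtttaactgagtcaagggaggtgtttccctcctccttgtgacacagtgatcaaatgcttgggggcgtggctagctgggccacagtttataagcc
Cmpk2, chr12:26469015-26469214, plus strand: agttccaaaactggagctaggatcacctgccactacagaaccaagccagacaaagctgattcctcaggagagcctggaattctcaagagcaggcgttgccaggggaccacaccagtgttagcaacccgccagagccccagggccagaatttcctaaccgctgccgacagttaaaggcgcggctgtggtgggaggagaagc
The windows of Ifit2, Cmpk2 and Oasl1 did not hold these letters. A match describes the sequence only.

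Depth and identity were checked first. The untreated samples held 239 wild-type and 270 Rad21-/- cells and the 8 h samples 257 and 224, and the rest were split evenly between the genotypes at 2 h, with a median of 5577 to 7055.5 UMIs per cell, and 17 wells held more than 25000 UMIs, 5 of them in the wild-type 2 h sample, where they made up 45.5% of all UMIs. Levels are therefore given as the mean over cells of UMIs of a gene per 1000000 UMIs of the cell (CPM), so that a deep well counts as 1 cell. Shares of positive cells (cells with at least 1 UMI of a gene) are also given after each cell was thinned to 3800 UMIs. Rad21 was detected in 25.9%, 26.9% and 18.7% of wild-type cells (untreated, 2 h and 8 h) and in 2.96%, 6.45% and 5.80% of Rad21-/- cells, which matched the labels. All 8 macrophage markers on the list, among them Adgre1, Csf1r, Cd68 and Lyz2, were present. Their summed level was 7745 to 10365 CPM in the wild-type samples and 6164 to 6855 CPM in the Rad21-/- samples, so it moved with genotype, and its part in the results below was not tested. Markers of T cells, B cells and fibroblasts each summed to at most 27.5 CPM in any sample and those of dendritic cells to at most 32.4 CPM, although for the first 3 types only 2 of 5, 1 of 4 and 2 of 3 of them were found in the matrix, and the 4 neutrophil markers on the list were not found there. Of 4 markers of plasmacytoid dendritic cells, which are known for making interferon, Siglech was not found in the matrix. The other 3 (Ccr9, Tcf4 and Bcl11a) summed to 271 to 361 CPM. At least 1 of these 3 was found in 79.9% to 84.9% of the cells of each sample. Their part in the results was not tested.

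The 10 genes together took a larger part of the transcriptome after LPS and a smaller one in Rad21-/- cells. They made up 0.0901%, 0.227% and 1.05% of all UMIs in the untreated, 2 h and 8 h wild-type samples. The corresponding values were 0.0229%, 0.0744% and 0.363% in the Rad21-/- samples. In the wild-type, 4 of the 10 (Ifit1, Rsad2, Cmpk2 and Oasl1) were at least 2-fold higher in mean CPM at 2 h than in the untreated sample. The background was 4.32% of the 10425 genes with at least 50 UMIs in both samples together. Mx2 was under 50 UMIs there, and Isg15 was 1.97-fold higher. At 8 h all 10 were at least 2-fold higher than untreated, with a background of 7.83%. All 10 were also at least 2-fold higher at 8 h than at 2 h in the wild-type, with a background of 6.7%.

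In Rad21-/- cells, 3 of the 10 (Ifit1, Isg15 and Rsad2) were at least 2-fold higher at 2 h than untreated, against 3.71% of all genes. Cmpk2, Mx1, Mx2 and Oasl1 were under 50 UMIs in these samples. At 8 h, 9 were at least 2-fold higher, against 7.03% of all genes, and Mx2 was under 50 UMIs. The median of the 10 log2 ratios of 8 h to untreated was 3.44 in the wild-type and 3.41 in Rad21-/- cells, where the medians over all genes were -0.23 and -0.02. In mean CPM the single genes went both ways, but counting error separated the genotypes for Isg15 only. The fold of 8 h over untreated was 9.38 in the wild-type and 20.04 in Rad21-/- cells for Isg15, and 4.04 and 7.05 for Ifit3. It was 31.9 and 19.5 for Rsad2, which had the highest wild-type fold. In thinned cells the intervals of this fold were 9.41 to 11.9 in the wild-type and 16.1 to 24.1 in Rad21-/- cells for Isg15. They overlapped between the genotypes for each of the other genes, Ifit3 and Rsad2 included. For Ifit1 the order depended on the measure. Its fold was higher in Rad21-/- cells in mean CPM but lower in thinned cells, 6.41 against 11.6 in the wild-type.

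Set against wild-type cells at the same time, the Rad21-/- sample had a lower mean CPM for all 10 genes at all 3 times. Counts did not separate the genotypes in every case. In the untreated and 2 h samples the intervals of the thinned ratio contained 1 for Usp18, Mx1 and Mx2. Mx2 rested on 2 against 8 UMIs in the untreated samples. At least 2-fold lower were 7 of the 10 in the untreated samples (background 4.37%), 7 at 2 h (background 6.17%) and 9 at 8 h (background 4.92%). Mx1 and Mx2 were under 50 UMIs in the untreated and 2 h comparisons. Usp18 did not reach 2-fold in the untreated and 2 h samples, and Isg15 did not at 8 h. The median log2 ratio of Rad21-/- to wild-type mean CPM over the 10 genes was -2.17 untreated, -2.06 at 2 h and -2.03 at 8 h. Over all genes it was -0.04, 0.01 and 0.20.

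**Figure D1:**
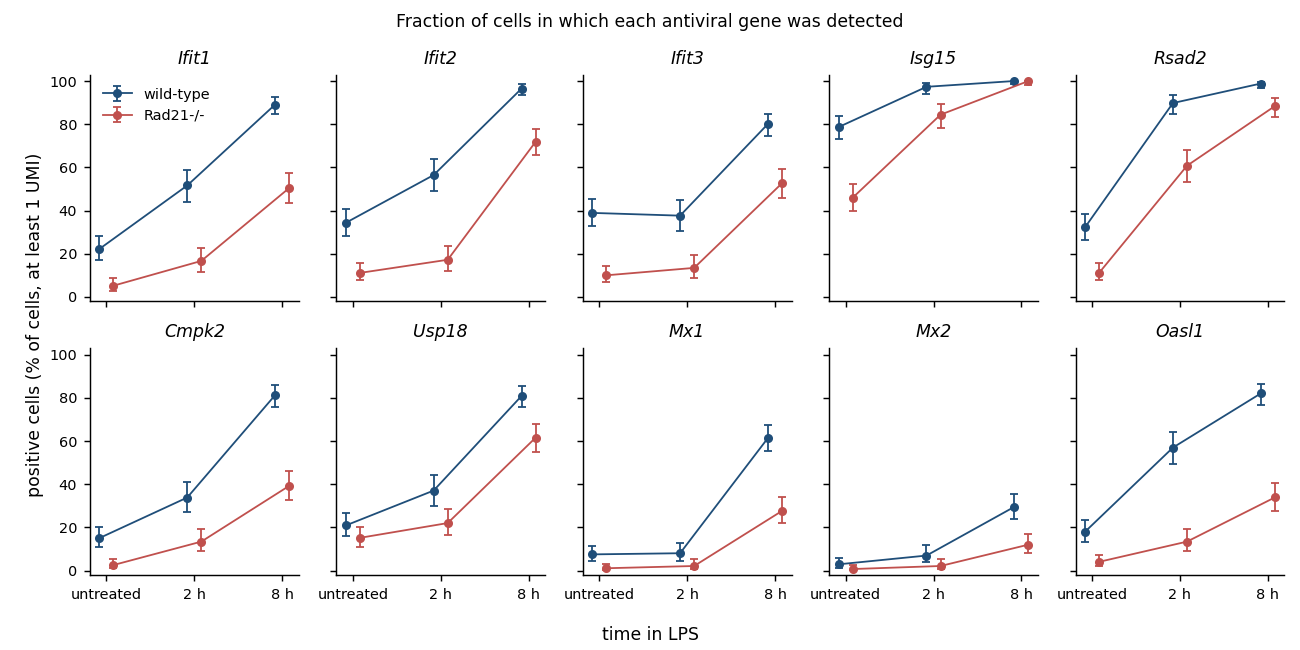
Share of cells with at least 1 UMI of each gene (y axis, % of cells) in untreated cells and after 2 h and 8 h of LPS (x axis), for the wild-type (blue) and Rad21-/- (red) samples, 1 sample per point. Bars are exact 95% Clopper-Pearson intervals. The Rad21-/- points lie below the wild-type points in every panel and at every time except for Isg15 at 8 h, where both reach 100%.

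The IFIT genes code for the tetratricopeptide proteins that recognise foreign RNA ends. Ifit1 was detected in 22.2%, 51.6% and 89.1% of wild-type cells (untreated, 2 h, 8 h). In Rad21-/- cells it was detected in 5.19%, 16.7% and 50.4%. With all UMIs, the Rad21-/- share after 8 h of LPS was thus close to the wild-type share after 2 h. In thinned cells, at equal depth, the Rad21-/- share at 8 h was lower, 26.6% against 35.2%. Thinned Ifit1 UMIs per 100 cells were 34.5 and 53.9 in these samples, and the intervals overlapped on both measures. At the same time point, the intervals of the shares from all UMIs did not overlap between the 2 genotypes at any time. Its mean level was 59.4, 135 and 511 CPM in the wild-type and 10.1, 30.7 and 121.5 CPM in Rad21-/- cells. After thinning, Rad21-/- cells held 0.304 times the wild-type UMIs per cell when untreated (interval 0.143 to 0.602), 0.241 times at 2 h (0.140 to 0.394) and 0.168 times at 8 h (0.129 to 0.216).

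Ifit2 was detected in 34.3%, 56.5% and 96.5% of wild-type cells and in 11.1%, 17.2% and 71.9% of Rad21-/- cells. The mean levels were 92.2, 151 and 1084 CPM against 20.6, 27.6 and 219 CPM. Most of the difference between times lay after 2 h in both genotypes, and the Rad21-/- sample at 2 h was nearly at its untreated level. In thinned cells the ratio of Rad21-/- to wild-type UMIs was 0.170 untreated (0.0907 to 0.298), 0.155 at 2 h (0.0815 to 0.272), with 0.223 at 8 h (0.190 to 0.261).

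Ifit3 was not higher at 2 h than untreated in the wild-type, unlike its neighbours. It was found in 38.9% of untreated wild-type cells, 37.6% at 2 h and 80.2% at 8 h, and in 10.0%, 13.4% and 52.7% of Rad21-/- cells. Its level was 104, 96.3 and 419 CPM in the wild-type and 18, 19.3 and 127 CPM in Rad21-/- cells. The counts did not separate the 2 h sample from the untreated sample in either genotype, with a difference in share of -1.28 points (-10.4 to 8.03) in the wild-type and 3.44 points (-2.45 to 9.85) in Rad21-/- cells. Ifit3 values carry an uncertainty of assignment, because 51.5% of the 50-base windows of its transcript also occur in the transcript of its near copy Ifit3b, 13.4% within the last 500 windows, and only unambiguously mapped reads were counted. Ifit3b itself was detected in 16.3%, 17.2% and 48.2% of wild-type cells and in 3.33%, 4.84% and 25.4% of Rad21-/- cells.

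Isg15 and Usp18 act at opposite ends of ISG15 conjugation, the modifier and the protease that takes it off its targets. Isg15 was detected in 78.7% of untreated wild-type cells, in 97.3% at 2 h and in 257 of 257 cells at 8 h. In Rad21-/- cells it was detected in 45.9% untreated, 84.4% at 2 h and 224 of 224 cells at 8 h. At 8 h the share could therefore no longer separate the genotypes (lower limits of the shares 98.6% and 98.4%), while the level could. Its mean level was 470.2, 927 and 4409.8 CPM in the wild-type and 121, 381 and 2417 CPM in Rad21-/- cells. The ratio of thinned UMIs was 0.294 untreated (0.234 to 0.369), 0.390 at 2 h (0.331 to 0.457), with 0.546 at 8 h (0.516 to 0.577). The 8 h interval overlapped neither of the others, so on this scale the genotype ratio was nearest to 1 at 8 h, beyond counting error. The log2 ratios of mean CPM were -1.96, -1.28 and -0.87. Size factors from median ratios, an alternative scaling, moved every gene by 0.03, 0.19 and -0.25 in the same order. With them the 8 h ratio of Isg15 was still nearer to 1 than the untreated ratio, but not nearer than the 2 h ratio.

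Usp18 had the mean CPM ratio of Rad21-/- to wild-type cells nearest to 1 among the 10 genes in the untreated and 2 h samples. It was found in 20.9%, 37.1% and 80.9% of wild-type cells and in 15.2%, 22% and 61.6% of Rad21-/- cells. The untreated difference of -5.74 points had an interval of -12.5 to 0.942, so it was not separated from 0 by counting error. Mean levels were 49.6, 65.7 and 348 CPM in the wild-type against 27.9, 41.7 and 155.8 CPM. In thinned cells the ratio was 0.667 untreated (0.374 to 1.17), 0.627 at 2 h (0.362 to 1.06), with 0.483 at 8 h (0.391 to 0.596), and only the 8 h interval stayed under 1.

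The enzymes that attach ISG15 were fixed as a list of 3. Uba7, the E1 enzyme, was detected in 24.7%, 21% and 41.6% of wild-type cells and in 10.0%, 11.8% and 34.8% of Rad21-/- cells. Ube2l6, the E2 enzyme, was detected in 25.9%, 31.7% and 34.6% of wild-type cells and in 15.9%, 23.7% and 49.6% of Rad21-/- cells. In share from all UMIs it was the enzyme whose order turned at 8 h, where Rad21-/- cells exceeded wild-type cells by 14.9 points (6.09 to 23.5). The Rad21-/- cells were deeper there, with a median of 7055.5 against 5819 UMIs. Over all genes with at least 50 UMIs the median difference in share was 5.31 points. In mean CPM Ube2l6 was 1.26-fold higher, a log2 ratio of 0.33, which size factors from median ratios moved by -0.25. Herc6, the main mouse E3 ligase for ISG15, was detected in 10.0%, 19.9% and 42% of wild-type cells and in 7.41%, 9.14% and 35.7% of Rad21-/- cells. By the 2-fold rule, 2 of the 3 (Uba7 and Ube2l6) were lower in Rad21-/- than in wild-type cells when untreated, 2 (Uba7 and Herc6) at 2 h and 0 at 8 h, where 4.37%, 6.17% and 4.92% of all genes were.

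Rsad2 and Cmpk2 are neighbouring genes that code for enzymes of nucleotide metabolism, viperin making a chain-terminating nucleotide from the product of CMPK2. Rsad2 was detected in 32.2%, 89.8% and 98.8% of wild-type cells and in 11.1%, 60.8% and 88.4% of Rad21-/- cells. Its mean level was 86.5, 837 and 2756 CPM in the wild-type and 22.1, 212 and 430.1 CPM in Rad21-/- cells. Rsad2 showed the highest ratio of 2 h to untreated among the 10 genes, 9.67 in the wild-type and 9.59 in Rad21-/- cells. From there the genotypes parted. The ratio of 8 h to untreated was 31.9 in the wild-type and 19.5 in Rad21-/- cells, and the thinned ratio of Rad21-/- to wild-type UMIs was 0.261 untreated (0.150 to 0.436), 0.263 at 2 h (0.216 to 0.320), with 0.162 at 8 h (0.144 to 0.181).

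Cmpk2 was detected in 15.1%, 33.9% and 81.3% of wild-type cells and in 2.59%, 13.4% and 39.3% of Rad21-/- cells. Its levels were 29.8, 71.5 and 452 CPM in the wild-type and 6.55, 26.7 and 70.2 CPM in Rad21-/- cells. As with Rsad2, the Rad21-/- level at 8 h lay far under the wild-type level at that time and near or under the wild-type level at 2 h. The thinned ratio was 0.196 untreated (0.0579 to 0.530), 0.482 at 2 h (0.260 to 0.861), with 0.149 at 8 h (0.108 to 0.201), and the intervals at 2 h and 8 h did not overlap.

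Mx1 and Mx2, genes of the dynamin-like GTPase family that the reference annotates as transcribed pseudogenes, were sparse before 8 h. Mx1 was detected in 7.53%, 8.06% and 61.5% of wild-type cells, from 19, 32 and 381 UMIs. In Rad21-/- cells it was detected in 1.11%, 2.15% and 27.7%, from 3 UMIs untreated and 4 at 2 h. Of the 32 UMIs in the wild-type 2 h sample, 13 came from 1 well. Mx2 was detected in 2.93%, 6.99% and 29.6% of wild-type cells (8, 33 and 127 UMIs) and in 0.741%, 2.15% and 12.1% of Rad21-/- cells (2, 6 and 39 UMIs). At 8 h, where the counts allow a ratio, thinned Rad21-/- cells held 0.231 times the wild-type UMIs of Mx1 (0.157 to 0.332) and 0.301 times those of Mx2 (0.158 to 0.539). Mx1 and Mx2 share 4.77% of the 50-base windows of the Mx1 transcript and none within its last 500.

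Oasl1 had the lowest mean CPM ratio of Rad21-/- to wild-type cells among the 10 genes at 2 h and 8 h. It was detected in 18%, 57% and 82.1% of wild-type cells and in 4.07%, 13.4% and 33.9% of Rad21-/- cells. Its mean level was 40.0, 181 and 458 CPM against 6.69, 20.1 and 62.9 CPM. The Rad21-/- share at 8 h was lower than the wild-type share at 2 h, by intervals that did not overlap (27.8% to 40.5% and 49.5% to 64.2%). In thinned cells the ratio of Rad21-/- to wild-type UMIs was 0.178 untreated (0.0605 to 0.437), 0.119 at 2 h (0.0633 to 0.207), with 0.131 at 8 h (0.0947 to 0.176).

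**Figure D2:**
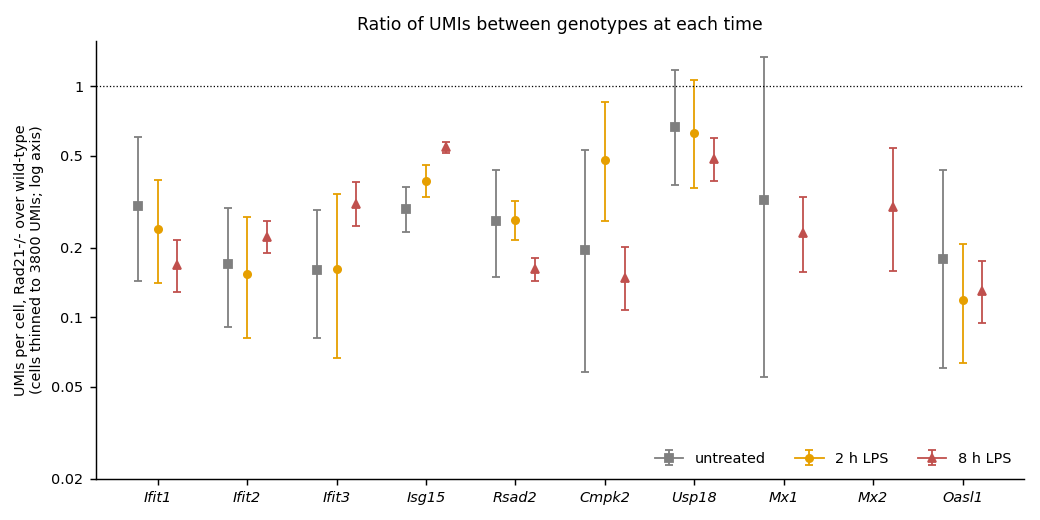
UMIs per cell in Rad21-/- cells divided by those in wild-type cells after each cell was thinned to 3800 UMIs (y axis, log scale), for each gene (x axis) in untreated cells (grey), at 2 h (orange) and at 8 h of LPS (red). Bars are exact 95% intervals for counting error, the dotted line marks a ratio of 1, and pairs of samples with fewer than 10 thinned UMIs in all are left out. Isg15 at 8 h, at 0.546, is the highest of the 8 h ratios, and Oasl1, at 0.131, is the lowest.

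At 8 h the genotypes differed in the number of transcripts per positive cell. For all genes but Isg15 they also differed in the share of positive cells. In thinned cells, a cell positive for Rsad2 held a mean of 10.7 UMIs of it in the wild-type and 2.27 in Rad21-/- cells. For Ifit2 the means were 4.36 and 1.72. For Isg15 they were 16.9 and 9.23, which are means over all cells, since every cell held it. For the other 7 genes they lay between 1.30 and 2.50 in the wild-type. In Rad21-/- cells they lay between 1.07 and 1.38, close to the 1 UMI that defines a positive cell. At 2 h these means were 3.87 against 2.13 for Isg15 and 3.89 against 1.91 for Rsad2. For the other 8 genes they were at most 1.7, close to the 1 UMI that defines a positive cell, where a change in level cannot be read. The variance of thinned Rsad2 UMIs over wild-type cells at 8 h was 4.81 times their mean (2.15 times in Rad21-/- cells), and that of Isg15 was 2.54 and 1.90 times. This measure grows with the mean where cells differ in level.

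The number of the 10 genes detected in the same cell was then counted. The median was 3, 5 and 8 genes in wild-type cells (untreated, 2 h, 8 h) and 1, 2 and 5 in Rad21-/- cells. After thinning the medians were 2, 4 and 7 against 1, 2 and 4. In the untreated samples, 13 wild-type cells (5.44%) were without a UMI of any of the 10 genes. Among Rad21-/- cells 87 (32.2%) held no UMI of any of the 10 genes. No cell was without them at 8 h in either genotype, which allows a share of up to 1.17% and 1.34%. The count was repeated without Isg15, the gene with the highest shares. Then 45 wild-type cells (18.8%) and 151 Rad21-/- cells (55.9%) were negative when untreated, 6 and 37 at 2 h, and 0 and 3 at 8 h.

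At the upper end, 68.9% of the wild-type cells at 8 h held at least 8 of the 10 genes (62.8% to 74.5%). In the Rad21-/- sample 30 cells did (13.4%, 9.22% to 18.6%). All 10 were found in 31 and 4 cells. In thinned cells 46.9% of wild-type and 0.985% of Rad21-/- cells held at least 8. With all UMIs a share of Rad21-/- cells thus reached the range that was common in the wild-type, but in thinned cells only 2 of 203 did. The lowest wild-type cell at 8 h held 3 of the 10. The median number of UMIs of the 10 genes per cell was 5, 14 and 61 in the wild-type and 1, 4 and 24 in Rad21-/- cells.

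**Figure D3:**
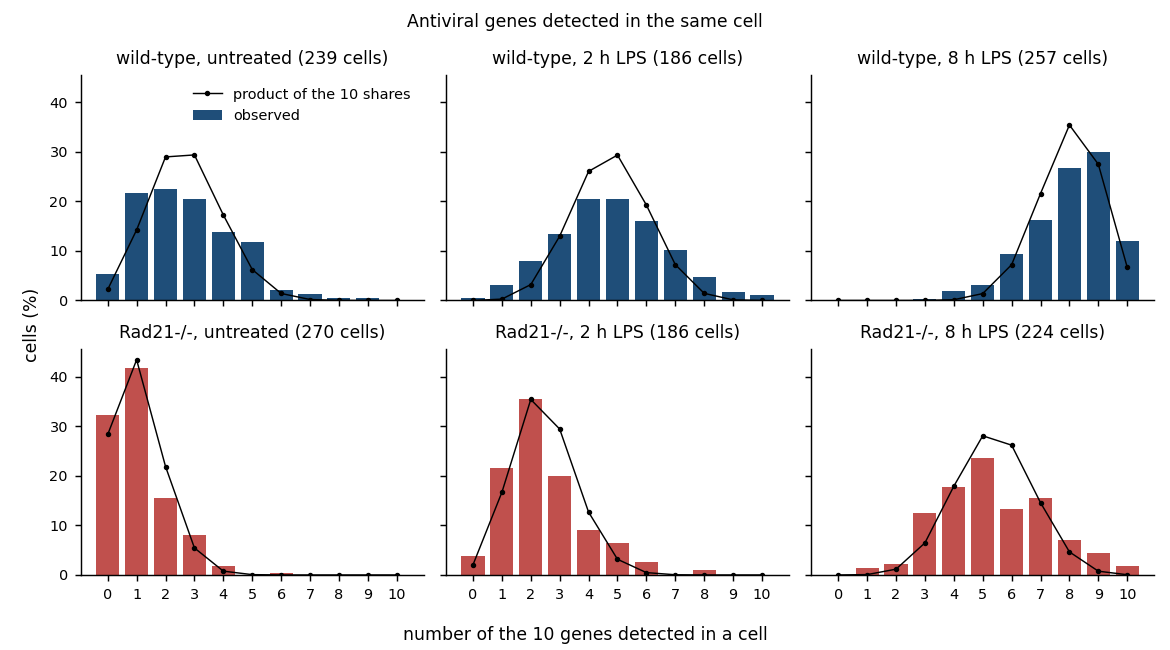
Share of cells (y axis, %) by the number of the 10 genes detected in the cell (x axis), for wild-type (top, blue) and Rad21-/- samples (bottom, red) untreated and after 2 h and 8 h of LPS, from all UMIs. The black line gives the share that follows from multiplying the genes' shares of positive cells. The wild-type 8 h cells peak at 9 genes (30.0% of cells) and the Rad21-/- 8 h cells at 5 (23.7%).

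Detection in the same cell exceeded what the shares of the single genes give, and did so by less in thinned cells. If each gene's share applied to every cell independently, the variance of the number of genes per cell would have been 1.56, 1.69 and 1.20 in the wild-type and 0.797, 1.21 and 1.81 in Rad21-/- cells. Variances actually observed were 1.77, 2.14 and 1.68 times these values in the wild-type and 1.33, 1.75 and 1.95 times in Rad21-/- cells. After thinning these ratios were 1.32, 1.41 and 1.38 and 1.08, 1.29 and 1.38. Thus all 6 ratios were above 1 with all UMIs and with thinned cells, and all 6 were lower after thinning. No interval was computed for them, so the lowest, 1.08 in thinned untreated Rad21-/- cells, was not separated from 1.

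Of the 45 pairs of genes, those with at least 5 cells given by the product of the shares numbered 33, 41 and 45 in the wild-type and 6, 19 and 45 in Rad21-/- cells. Across them the median ratio of observed cells with both genes to that product was 1.22, 1.14 and 1.01 in the wild-type and 1.20, 1.14 and 1.09 in Rad21-/- cells. After thinning it was 1.09, 1.07 and 1.00 in the wild-type, and 1.07 and 1.07 in Rad21-/- cells at 2 h and 8 h, while only 2 pairs were left in the untreated Rad21-/- sample. At 8 h in the wild-type, 8 of the 10 genes were found in over 80% of cells, where the ratio has little room to leave 1.

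Pairs from the same locus were set beside the other pairs. At 2 h in the wild-type, 71 cells held both Ifit1 and Ifit2 where the product of the shares gave 54.2 (27 and 23.9 in thinned cells). At 8 h in the wild-type, 59 cells held both Mx1 and Mx2 where the product gave 46.7 (29 and 20.9 in thinned cells), and in Rad21-/- cells 17 did where it gave 7.47. Rsad2 and Cmpk2 shared 208 cells at 8 h in the wild-type where the product gave 207, since nearly every cell held Rsad2. Across the 257 cells, all from 1 sample, their UMI counts, not divided by depth, went together with a Spearman's rho of 0.62. In thinned cells, at equal depth, the rho was 0.43. Pairs on different chromosomes were close to this, with 0.60 and 0.45 for Ifit2 and Rsad2 and 0.57 and 0.41 for Ifit2 and Cmpk2. Over all same-locus pairs that could be compared, the median ratio was 1.23 at 2 h in the wild-type, and over the other pairs it was 1.11 (1.15 and 1.05 in thinned cells). In the wild-type untreated sample the values were 1.28 and 1.20, and after thinning 1.05 and 1.09, so the order did not hold there. At 2 h in Rad21-/- cells the 2 same-locus pairs that could be compared were lower, with 1.03 against 1.19, and at 8 h the values were 1.01 and 1.01 in the wild-type and 1.11 and 1.08 in Rad21-/- cells.

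**Figure D4:**
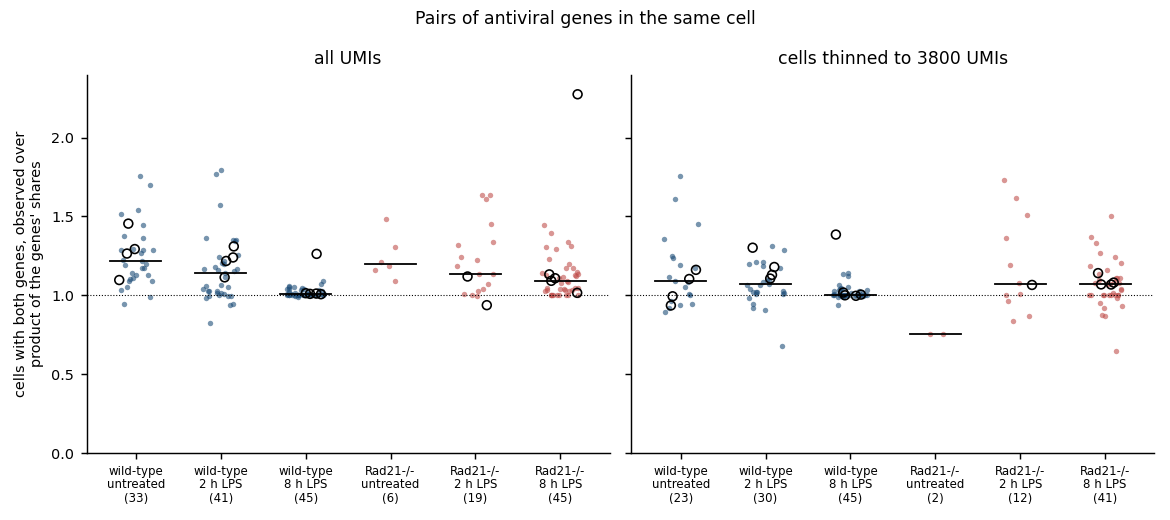
Ratio of the observed number of cells holding both genes of a pair to the number given by the product of the 2 shares (y axis), for each sample (x axis, with the number of pairs in parentheses), from all UMIs (left) and thinned cells (right). Points are pairs, open circles are pairs from the same locus, horizontal bars are medians and the dotted line is a ratio of 1. The medians lie between 1.01 and 1.22 with all UMIs and between 1.00 and 1.09 in thinned cells, apart from the 2 pairs of the untreated Rad21-/- sample (0.753), and the highest circle is Mx1 with Mx2 in Rad21-/- cells at 8 h.

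The cells of both genotypes were processed in the same library pools, each pool holding 1 time point, so that the comparison of genotypes could be repeated within a pool. Of 24 pools 23 held both genotypes, and 18 held at least 10 cells of each. The median over the 10 genes of the difference in share was below 0 in 8 of 8 untreated pools (-18.8 to -9.26 points), in 4 of 4 pools at 2 h (-23.9 to -18.2 points) and in 6 of 6 pools at 8 h (-32.8 to -17.1 points). Over all cells it was -15.5, -22.3 and -26.1 points. The mean number of genes detected per cell did not overlap between the genotypes across pools at any time. It was 2.00 to 3.24 in wild-type and 0.478 to 1.36 in Rad21-/- cells when untreated, 3.98 to 5.13 and 2.00 to 2.72 at 2 h, and 7.61 to 8.33 and 4.87 to 5.77 at 8 h. Pools divide 1 sample per group and are not separate cultures. For single genes, the mean CPM of Ifit1, Ifit2, Ifit3, Isg15, Rsad2 and Oasl1 was lower in Rad21-/- cells in every one of these 18 pools, and Usp18 was lower in 8, 3 and 6 of them. Within a pool no well label was held by both genotypes, although 97 of the 109 labels recur between pools. Time points were not mixed within a pool, so pool and time cannot be told apart in the comparisons of LPS with untreated cells.

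**Figure D5:**
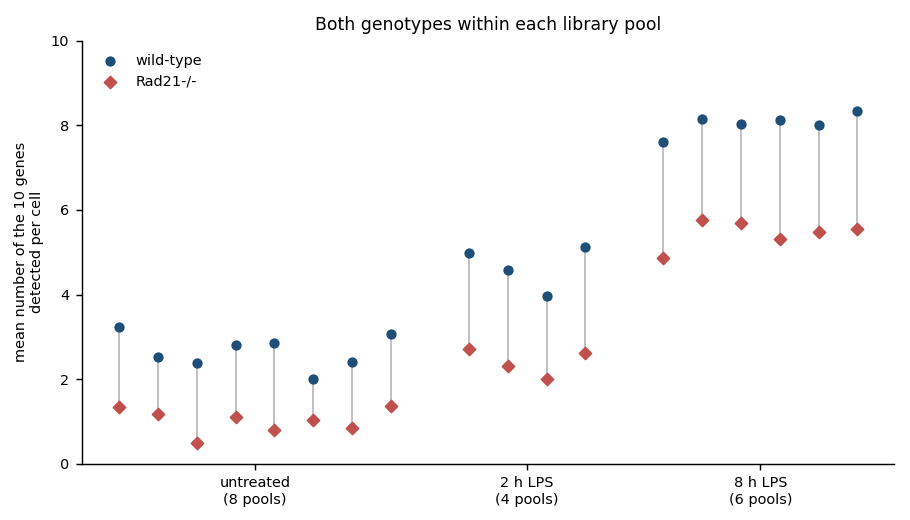
Mean number of the 10 genes detected per cell (y axis) in wild-type (blue circles) and Rad21-/- cells (red diamonds) of each library pool with at least 10 cells of each genotype, pools grouped by time (x axis) and lines joining the genotypes of a pool. Every red diamond lies below the blue circle of its pool, and the ranges of the genotypes do not overlap at any of the 3 times.

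Ifnb1, the gene of interferon beta, was detected in 39 wild-type cells at 2 h (21%) and in 3 Rad21-/- cells at that time (1.61%). It was found in 0 of 239 and 0 of 270 untreated cells and in 0 of 257 and 0 of 224 cells at 8 h, which allows shares of up to 1.26%, 1.11%, 1.17% and 1.34%. At 2 h the 39 wild-type cells with an Ifnb1 UMI held a mean of 5.67 of the 10 genes and the others 4.52. With the same sets, the means were 3.92 and 3.62 when the 10 genes were counted in thinned cells. The difference between the sets was thus smaller at equal depth. The part of Ifnb1 in the levels of the 10 genes was not tested. Of the 12 genes on the list of type I interferon signalling, 4 were at least 2-fold lower in Rad21-/- cells at 2 h and 0 were higher (6.17% of all genes were lower and 3.45% higher). At 8 h 4 were lower and 1 was higher (4.92% and 8.5% of all genes). The lowest ratios were those of Ifnb1 (3 UMIs in Rad21-/- cells) and of Irf7, the master transcription factor of the type I response, at 2 h, where Irf7 was 3.66-fold lower (78.8 against 289 CPM), and of Socs1 (3.57-fold) and Irf7 (2.54-fold) at 8 h. The highest were those of Irf3, the constitutive interferon regulatory factor, 1.91-fold higher at 2 h and 2.14-fold at 8 h, and of the receptor chain Ifnar1 at 2 h (1.43-fold) and the kinase Tyk2 at 8 h (a log2 ratio of -0.17).

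A list of other interferon-stimulated genes had 26 members in the matrix. Of these, 17 were at least 2-fold lower in Rad21-/- cells at 2 h and 16 at 8 h (6.17% and 4.92% of all genes). At both times 0 were higher (3.45% and 8.5% of all genes), while 24 and 26 of the list held at least 50 UMIs. The lowest were the exonuclease gene Isg20 (6.97-fold) and Ifi44 (5.70-fold) at 2 h, and Ifit1bl1 of the Ifit locus (6.96-fold) and Ifi205 (6.42-fold) at 8 h. Nearest to wild-type were Dtx3l (1.20-fold lower) and Samd9l (1.48-fold) at 2 h and the synthetase genes Oas3 (1.38-fold) and Oas1a (1.45-fold) at 8 h. Of 10 nucleic acid sensors, 8 and 9 held at least 50 UMIs at 2 h and 8 h. At 2 h 3 were at least 2-fold lower (6.17% of all genes). At 8 h 1 was, which is near the background of 4.92%. Zbp1 (4.38-fold) and Dhx58 (2.18-fold) were lowest at 2 h, and Tlr3 (3.40-fold) and Dhx58 (1.99-fold) at 8 h. Tmem173, which codes for STING, had log2 ratios of 0.04 at 2 h and 0.94 at 8 h, Ifih1 one of -0.10 at 2 h and Mb21d1, which codes for cGAS, one of 0.80 at 8 h.

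All 10 LPS control genes, direct targets of Toll-like receptor signalling such as Tnf and Cxcl1, were at least 2-fold higher at 2 h than untreated in both genotypes (4.32% of all genes in the wild-type and 3.71% in Rad21-/- cells). In Rad21-/- cells 4 of the 10 were at least 2-fold lower than in wild-type cells at 2 h and 3 at 8 h (6.17% and 4.92% of all genes). Ptgs2 (3.47-fold at 2 h and 6.86-fold at 8 h) and Ccl4 (2.96-fold and 3.51-fold) were lowest. Il1b was 1.36-fold higher at 2 h and 1.25-fold at 8 h, and Cxcl1 1.17-fold lower and 1.91-fold higher. The difference between the lists was not tested.

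The genes whose log2(mean CPM + 1) followed the mean of the 10 genes on the same scale most closely over the 6 samples were sought among 7923 genes. Outside the group these were Rab1a, a GTPase of vesicle transport (Pearson's r of 0.997), Ifi204, an interferon-inducible DNA sensor (0.995), Tor1aip1 (0.989), the surface receptor Slamf7 (0.989) and the purine enzyme gene Pnp (0.988). Over 6 samples that share 2 genotypes and 3 times such values describe a shape only. The shapes had different amplitudes. Rab1a ran from 253 CPM in untreated Rad21-/- cells to 439 CPM in the wild-type at 8 h, whereas Slamf7 ran from 7.61 to 687 CPM. Among the 10, which are themselves part of that mean, Ifit1 followed it most closely (0.995) and Rsad2 least (0.933).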

How the data were processed

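The authors prepared MARS-seq libraries from macrophages sorted into plates, sorted out the reads of each cell by their barcodes, trimmed polyT and aligned the rest with GEMTools to the mouse genome (GRCm38.p4, as the submitters' processing notes name it). Wells rich in spike-in reads or poor in mapped reads were dropped, and unambiguously mapped reads were collapsed by UMI. The deposited file holds the UMI counts of each gene in each cell, not normalized, in 18429 rows. The symbol March2, listed on more than 1 row, was summed, which left 18428 genes. Column names gave the sample and library pool of every cell. Duplicate molecules with sequencing errors, reads lost to near copies and doublets, for which no caller was run, can affect these counts.

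Counts were divided by the total UMIs of each cell and averaged over cells (mean CPM). A difference counted as 2-fold on this scale among genes with at least 50 UMIs in both samples together, and a ratio against fewer than 3 UMIs used 3 UMIs as a floor. Each cell was also thinned once, without replacement, to 3800 UMIs, which left out 21 to 47 shallower cells per sample. Shares carry Clopper-Pearson intervals, differences in share Newcombe intervals and ratios of thinned UMIs exact intervals, at 95%, and they cover counting error only. With 1 sample per group there was no test. The samples had 1417409 to 2195921 UMIs. The scripts ran in Python 3.11.15 with numpy 2.4.6, pandas 2.3.3, scipy 1.17.1 and matplotlib 3.10.9, and were tested on simulated data.

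The 10 genes and the gene lists were chosen with earlier results of these data known. Named genes were the 10, Rad21, Ifnb1, the 2 highest and 2 lowest of each list in Rad21-/- against wild-type cells at 2 h and 8 h, and the 5 most alike. Ifit3b was named for its shared sequence, and the genes given for the ISG15 enzymes are the whole of that list. Of the other lists, Ifi44l was not found in the matrix. The alternatives tried were thinned cells, no wells over 25000 UMIs, size factors from median ratios, summed UMIs, equal weight per pool, at least 2 UMIs per positive cell, no filter on UMIs and leaving out each pool. The whole genome and annotation at hand were of another build, so coordinates and promoters were taken from RefSeq tables for GRCm38.p6, where all 10 symbols matched, and near copies from transcripts of Gencode M1.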

Additional observations from a re-analysis of the deposited data

Results flagged for a closer look

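Ifit3 and Mx1 came up because their mean CPM at 2 h lay below the untreated sample in the wild-type and above it in Rad21-/- cells, and because the wild-type direction at 2 h was opposite to that at 8 h. The log2 ratio of 2 h to untreated was -0.11 for Ifit3 in the wild-type and 0.10 in Rad21-/- cells, and that of 8 h to untreated was 2.01 in the wild-type. For Mx1 the 2 h values were -0.38 and 0.50, and the wild-type value at 8 h was 3.50. The difference between genotypes was not tested. The intervals of the ratio of thinned UMIs at 2 h contained 1 for both genes in both genotypes, with 0.605 to 1.28 for Ifit3 and 0.314 to 3.21 for Mx1 in the wild-type, and Mx1 rested on 3 and 4 UMIs in Rad21-/- cells.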

How the results depend on the processing

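No median difference over the 10 genes that lay beyond counting error turned its direction under the alternatives run. Directions of single genes were not part of this check. Among the 356 values from leaving out 1 library pool in turn, medians moved by less than the counting error. Numbers of genes past 2-fold moved by at most 1.5 times. The median log2 ratio of Rad21-/- to wild-type cells then ran from -2.31 to -1.99 untreated, -2.22 to -1.87 at 2 h and -2.19 to -1.98 at 8 h. Of the values under the other alternatives, 117 stayed within these limits and 21 did not. With equal weight per pool, the median difference in share was 28.8 points for wild-type 2 h against untreated cells and 22.6 points for 8 h against 2 h, and the median log2 ratio was 1.97 for wild-type 8 h against 2 h and -2.28 for Rad21-/- against wild-type cells at 8 h. Size factors from median ratios moved every gene by up to 0.40 and gave 2.71 and -2.28 in the same order, and Isg15 then also passed 2-fold at 8 h. With at least 2 UMIs per positive cell, the median differences in share from untreated cells were 8.78 points at 2 h and 52.2 at 8 h in the wild-type and 1.73 and 22.6 in Rad21-/- cells, that between untreated genotypes was -5.70, and the median number of genes per cell was 1, 3 and 6 in the wild-type and 0, 1 and 3 in Rad21-/- cells. In thinned cells the 8 h difference from untreated was 27.8 points in Rad21-/- cells, with medians of 7 and 4 genes per cell at 8 h. Without the filter on UMIs, 6 of the 10 genes passed 2-fold at 2 h in Rad21-/- cells. The cause of these shifts was not tested. Sparse genes limit the precision, above all Mx1, Mx2 and Cmpk2 before 8 h. No paired analysis was possible because the labels give no replicate numbers and each group is 1 sample.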

Other observations

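The UMIs of the 10 genes were spread unevenly over cells. The tenth of cells with the most of them held 28.3%, 54.4% and 29.3% of these UMIs in the wild-type (untreated, 2 h, 8 h) and 37.9%, 41.8% and 35.6% in Rad21-/- cells. In thinned cells the values were 30.4%, 25.4% and 17.5% in the wild-type and 36.8%, 31.7% and 21% in the Rad21-/- samples. At equal depth the wild-type 2 h sample thus did not hold its high value, and that sample held 5 of the 17 wells over 25000 UMIs.

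With all UMIs at 8 h, cells with Mx2 held more of the other genes, as did cells with any other gene that some cells lacked. It was thus not particular to Mx2. In the wild-type the means were 7.08 in positive against 5.78 in negative cells for Ifit2, and 7.37 against 6.30 for Oasl1. In thinned wild-type cells the order turned for Ifit1, with 6.41 against 6.49. At 8 h the 76 wild-type cells positive for Mx2 held a mean of 8.08 of the other 9 genes and the 181 negative cells 7.55. In Rad21-/- cells the 27 positive cells held 6.56 and the 197 negative cells 5.08. After thinning the means were 7.51 and 6.95 in the wild-type and 4.29 and 3.94 in Rad21-/- cells, where 14 cells were positive.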
